A study of Homo sapiens with 11 samples.

Results

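Microtubules are hollow polymers built from heterodimers of alpha and beta tubulin, and the human genome encodes each subunit in several isotypes from separate genes. The 10 isotype genes described here are 3 of alpha tubulin (TUBA1A, TUBA1B and TUBA1C) and 7 of beta tubulin (TUBB, TUBB2A, TUBB2B, TUBB3, TUBB4A, TUBB4B and TUBB6), chosen by gene symbol from the 57815 genes listed in each RNA table. The isotypes differ mainly in their acidic C-terminal tails, which project from the microtubule surface and carry most of the modifications of tubulin. TUBB3 is widely used as a marker of neurons, TUBB2A and TUBB2B are abundant in brain, TUBB and TUBA1B are found in nearly all dividing cells, and TUBB6 is a broadly expressed isotype that is scarce in brain. Small cell lung carcinoma is a tumour with neuroendocrine features, so the neuronal isotypes were set against a lung fibroblast line in these data.

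RNA-seq libraries numbered 3 for DMS153, 2 for H209 and 3 for MRC5, and Hi-C, which maps contacts between distant parts of the genome, was deposited as 1 library of each line. DMS153 and H209 are established small cell lung carcinoma lines and MRC5 is a noncancerous lung fibroblast line. All 3 were kept in the same serum-supplemented medium, and no treatment that would separate the RNA groups is described. Each line stands for 1 cell line only, so a difference between lines is not a difference between tumour and normal lung. The labels number the RNA libraries without stating whether cultures were separate, so the p-values reflect library to library variation, perhaps of technical origin, and nothing wider.

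Marker genes were compared with the labels of the lines. The summed level of 9 neuroendocrine markers was 2009.8 to 2176 FPKM in DMS153, 1361 to 1369 FPKM in H209 and 0.347 to 0.479 FPKM in MRC5, where none of them averaged 1 FPKM. The summed level of 9 fibroblast markers was 7.20 to 9.38 FPKM in DMS153, 27.3 to 32.3 FPKM in H209 and 7675 to 8513 FPKM in MRC5. The summed level of 4 epithelial markers (EPCAM, CDH1, KRT8 and KRT18) was 997 to 1091 FPKM in DMS153, 767 to 771 FPKM in H209 and 94.6 to 106 FPKM in MRC5, where 2 of the 4 averaged at least 1 FPKM. Markers of blood cells (7 genes) summed to at most 2.80 FPKM in any library, and those of endothelial cells (3 of 4 listed) to at most 0.857 FPKM. FPKM corrects a gene's fragment number for transcript length and for library size, so levels of different isotypes can be compared with one another. MicroRNA loci held 39.9% to 44.1% of the summed FPKM of the DMS153 libraries and at most 0.045% in the other lines. When small RNA and mitochondrial genes were left out of the scaling, the log2 fold change against MRC5 in DMS153 was 0.16 for TUBB and 2.40 for TUBA1A, against -0.16 and 2.09 with FPKM as deposited. Such scaling cannot move the share of one isotype within its family in the same library. The files hold no read counts. The most frequent ratio of their low values puts the depth of the libraries at 0.946 to 1.66 times that of MRC5 replicate 1. That ratio was shared by 73 to 281 of the 3985 to 6220 low genes of a library, so the estimate is coarse.

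RefSeq promoter windows, each 250 bases before and 50 bases after an annotated start, were found for all 10 genes, 16 windows in all. The windows of 6 genes are printed because these genes carry the differences described next: TUBB3 and TUBB2B were higher in the carcinoma lines, TUBB6 was lower, TUBB2A differed between the carcinoma lines, and TUBA1A and TUBA1C are neighbours with opposite directions. Capitals mark matches to CCAAT and GGGCGG on either strand (ATTGG and CCGCCC on the other strand). For genes with several annotated starts, the most downstream one is shown.
TUBB3 (GRCh38.p14, chr16:89923092-89923391, plus strand): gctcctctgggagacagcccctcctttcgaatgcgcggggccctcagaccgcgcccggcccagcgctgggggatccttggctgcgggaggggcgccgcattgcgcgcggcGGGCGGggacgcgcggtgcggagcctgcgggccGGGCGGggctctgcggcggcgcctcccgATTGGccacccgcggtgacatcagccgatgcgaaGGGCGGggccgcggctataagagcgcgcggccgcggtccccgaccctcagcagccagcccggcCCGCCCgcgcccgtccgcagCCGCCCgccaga
TUBB2B (GRCh38.p14, chr6:3227604-3227903, minus strand): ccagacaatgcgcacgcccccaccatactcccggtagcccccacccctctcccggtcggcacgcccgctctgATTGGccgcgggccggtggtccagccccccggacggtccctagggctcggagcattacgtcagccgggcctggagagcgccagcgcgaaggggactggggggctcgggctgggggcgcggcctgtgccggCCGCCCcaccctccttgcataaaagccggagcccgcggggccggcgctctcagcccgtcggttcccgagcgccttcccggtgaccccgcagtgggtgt
TUBB2A (GRCh38.p14, chr6:3157495-3157794, minus strand): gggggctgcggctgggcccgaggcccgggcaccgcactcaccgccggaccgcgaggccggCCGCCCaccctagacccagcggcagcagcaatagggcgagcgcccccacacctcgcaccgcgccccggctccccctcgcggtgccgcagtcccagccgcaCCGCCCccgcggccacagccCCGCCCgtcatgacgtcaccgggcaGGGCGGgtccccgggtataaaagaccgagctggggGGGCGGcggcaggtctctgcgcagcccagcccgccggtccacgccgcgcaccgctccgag
TUBB6 (GRCh38.p14, chr18:12307991-12308290, plus strand): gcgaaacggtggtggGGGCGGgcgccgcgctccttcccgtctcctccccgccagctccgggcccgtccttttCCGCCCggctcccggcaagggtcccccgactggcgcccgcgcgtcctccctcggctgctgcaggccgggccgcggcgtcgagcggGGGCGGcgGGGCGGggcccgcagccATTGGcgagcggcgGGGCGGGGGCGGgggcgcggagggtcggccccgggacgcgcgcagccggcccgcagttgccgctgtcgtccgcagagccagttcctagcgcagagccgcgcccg
TUBA1A (GRCh38.p14, chr12:49189031-49189330, minus strand): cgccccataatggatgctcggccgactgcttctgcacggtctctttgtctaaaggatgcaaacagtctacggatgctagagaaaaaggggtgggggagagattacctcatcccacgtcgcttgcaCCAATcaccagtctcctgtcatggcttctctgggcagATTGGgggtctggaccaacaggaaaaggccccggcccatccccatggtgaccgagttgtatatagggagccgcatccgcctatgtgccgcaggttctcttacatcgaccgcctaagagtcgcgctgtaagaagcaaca
TUBA1C (GRCh38.p14, chr12:49264832-49265131, plus strand): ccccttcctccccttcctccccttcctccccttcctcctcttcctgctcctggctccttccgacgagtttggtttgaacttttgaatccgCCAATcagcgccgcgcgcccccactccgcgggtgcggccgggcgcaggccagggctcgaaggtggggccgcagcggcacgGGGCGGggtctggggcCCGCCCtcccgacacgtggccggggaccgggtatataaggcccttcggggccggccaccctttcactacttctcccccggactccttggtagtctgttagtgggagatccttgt
CCAAT was found in 10 of the 16 windows and GGGCGG in 10 of the 16, against 34.6% and 45.0% of 35114 windows of the same length over all genes. Windows of one gene can overlap and are not independent. By gene, 8 of the 10 had CCAAT and 8 had GGGCGG in at least 1 window. G and C made up 55.7% (TUBA1A) to 81.3% (TUBB6) of the printed windows, against a median of 58.7% over all windows. The background was not matched for this content. The printed windows of TUBB6 and TUBB3 hold both motifs: 1 CCAAT and 6 GGGCGG in TUBB6, and 1 CCAAT and 5 GGGCGG in TUBB3. The upstream window of each of these genes holds neither motif, and which start the lines use was not tested. The window of TUBA1A has no GGGCGG and 2 CCAAT, and the printed window of TUBA1C has 1 CCAAT and 2 GGGCGG. Both contain TATATA, a match present in 3.99% of all windows, as does TUBB4B. TATAAA, searched on both strands and present in 11.5% of all windows, was found among these genes only in the window of TUBB2A. CAGCTG, present in 17.9% of all windows, was found among them only in the upstream window of TUBB4A. These matches describe letters, not binding.

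The alpha tubulins TUBA1A and TUBA1B held the highest RNA levels of the 10 genes in both carcinoma lines. TUBA1A (ENSG00000167552.9, chromosome 12, 49578579 to 49583107 in hg19), the alpha isotype known for its role in developing neurons, stood at 1557, 1589 and 1794 FPKM in the DMS153 libraries, at 1309 and 1502 FPKM in the H209 libraries and at 342, 449 and 375 FPKM in the MRC5 libraries. Every carcinoma library was above every MRC5 library. The log2 fold change was 2.09 ± 0.11 in DMS153 (SE, limma adjusted p = 1.11e-07) and 1.86 ± 0.13 in H209 (limma adjusted p = 6.70e-07), each against MRC5. TUBA1B (ENSG00000123416.11, chromosome 12, 49521565 to 49525180), the alpha isotype of most dividing cells, stood at 1322, 1459 and 1279 FPKM in DMS153, at 1063 and 1131 FPKM in H209 and at 409, 507 and 421 FPKM in MRC5. It was also higher in every carcinoma library, with log2 fold changes of 1.61 ± 0.10 in DMS153 (limma adjusted p = 2.36e-07) and 1.30 ± 0.11 in H209 (limma adjusted p = 2.77e-06), although in H209 it missed the minimum fold under median ratio scaling, at 0.93. Fewer cells of a kind and less RNA per cell cannot be told apart in such bulk libraries.

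TUBA1C (ENSG00000167553.10, chromosome 12, 49582519 to 49667114), a further alpha isotype of many tissues, ran the other way. It stood at 74.3, 85.8 and 86.7 FPKM in DMS153, at 92.5 and 90.4 FPKM in H209 and at 144, 160 and 128 FPKM in MRC5. The 5 carcinoma libraries lay below the 3 MRC5 libraries, with log2 fold changes of -0.80 ± 0.09 in DMS153 (limma adjusted p = 2.85e-05) and -0.64 ± 0.10 in H209 (limma adjusted p = 0.000306), both short of the minimum of 1. Median ratio scaling took both past it, at -1.01 in each line, and TPM scaling took DMS153 to -1.23. In level, TUBA1A was 20.1 ± 1.33 times TUBA1C in DMS153 (SD, n = 3), 15.4 ± 1.75 times in H209 (n = 2) and 2.70 ± 0.298 times in MRC5 (n = 3). The listed loci of TUBA1A and TUBA1C overlap by 589 bases, and whether reads of one were counted under the other was not tested.

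**Figure D1:**
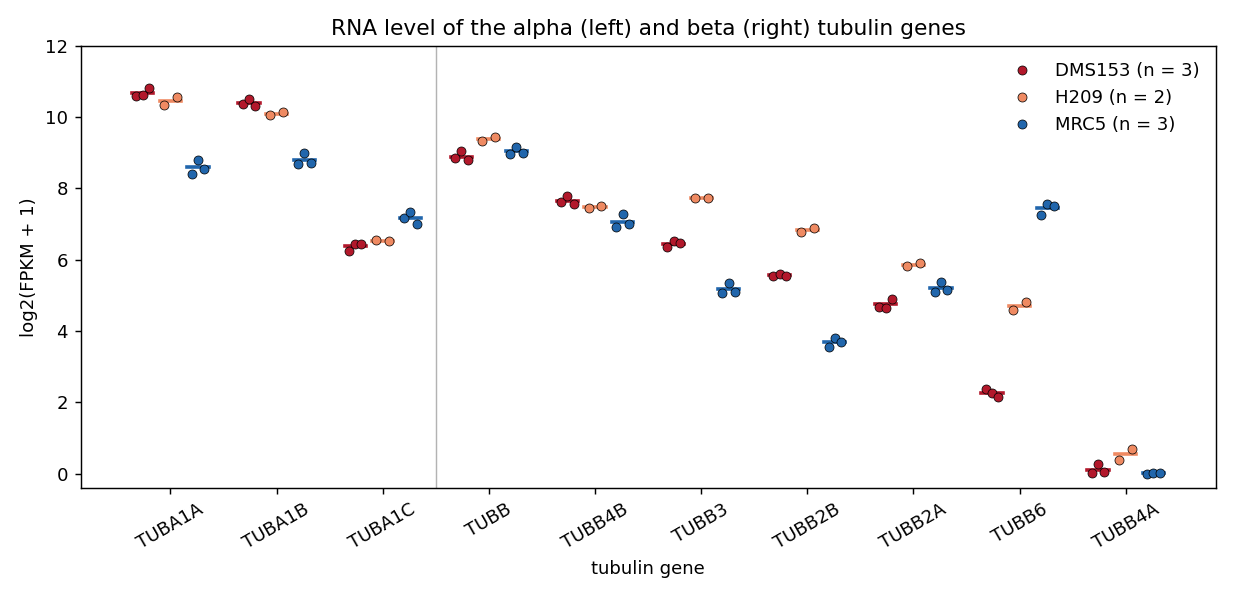
RNA level of each tubulin gene as log2(FPKM + 1), with alpha genes left of the vertical line and beta genes right of it; points are libraries (DMS153 n = 3, H209 n = 2, MRC5 n = 3) and short lines are means. TUBB6 is the one gene whose MRC5 points lie far above both carcinoma lines, while TUBA1A, TUBA1B, TUBB3, TUBB2B and, by less, TUBB4B lie above MRC5 in both.

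Among beta tubulins, TUBB3 and TUBB2B were higher and TUBB6 was lower in both carcinoma lines than in MRC5. TUBB3 (ENSG00000258947.2, chromosome 16, 89987800 to 90005169) stood at 80.7, 91.2 and 87.6 FPKM in DMS153, at 210.3 and 212 FPKM in H209 and at 32.5, 39.9 and 33.5 FPKM in MRC5. The groups did not overlap: H209 was highest, DMS153 lay between, and MRC5, though lowest, still had at least 32.5 FPKM of this neuronal isotype. The log2 fold change was 1.27 ± 0.09 in DMS153 (limma adjusted p = 5.44e-07) and 2.55 ± 0.10 in H209 (limma adjusted p = 1.22e-08). In DMS153 it fell short of the minimum fold under TPM scaling, at 0.85.

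TUBB2B (ENSG00000137285.9, chromosome 6, 3224495 to 3231964), a beta isotype of the developing brain, followed the same order of lines. It stood at 45.5, 47.3 and 45.8 FPKM in DMS153, at 109 and 118 FPKM in H209 and at 10.8, 13.0 and 11.9 FPKM in MRC5. The log2 fold changes were 1.88 ± 0.07 in DMS153 (limma adjusted p = 1.29e-08) and 3.16 ± 0.08 in H209 (limma adjusted p = 1.33e-09), the highest rise of the 9 tested isotypes in H209. Its near copy TUBB2A (ENSG00000137267.5, chromosome 6, 3153903 to 3157760) stood at 24.8, 24.2 and 28.8 FPKM in DMS153, at 55.3 and 59.4 FPKM in H209 and at 33.0, 40.5 and 34.2 FPKM in MRC5. The MRC5 libraries thus lay between the carcinoma lines, and the fold changes were -0.45 ± 0.10 in DMS153 (limma adjusted p = 0.00167) and 0.67 ± 0.11 in H209 (limma adjusted p = 0.000297) on the log2 scale, both short of the minimum. TUBB2B was 1.79 ± 0.184 times as high as TUBB2A in DMS153, 1.98 ± 0.0111 times in H209 and 0.332 ± 0.0130 times in MRC5, so the order of this pair was turned round between the carcinoma lines and the fibroblasts. Both genes are so alike in their coding sequence that reads may have been assigned from one to the other. The neighbouring pseudogene TUBB2BP1 had 10.2 FPKM in DMS153, 17.3 FPKM in H209 and 1.60 FPKM in MRC5 on average.

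TUBB6 (ENSG00000176014.8, chromosome 18, 12307668 to 12344319) showed the widest range between lines. It stood at 4.23, 3.82 and 3.48 FPKM in DMS153, at 23.3 and 27.4 FPKM in H209 and at 153, 190.1 and 180.5 FPKM in MRC5. The 3 groups were fully apart. The mean in DMS153 was 45.4-fold lower than in MRC5, and that in H209 6.89-fold lower, with log2 fold changes of -5.18 ± 0.10 (limma adjusted p = 1.38e-10) and -2.74 ± 0.11 (limma adjusted p = 2.39e-08) on the scale of FPKM + 1. AFG3L2, a gene that overlaps 15377 bases of the TUBB6 locus, had 10.5, 35.4 and 14.9 FPKM on average in DMS153, H209 and MRC5. The ratio of TUBB3 to TUBB6 was 22.7 ± 3.22 in DMS153, 8.39 ± 0.908 in H209 and 0.203 ± 0.0145 in MRC5.

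TUBB and TUBB4B, the beta isotypes found in most cells, were not called in any comparison of lines with FPKM as deposited. TUBB (ENSG00000196230.8, chromosome 6, 30687978 to 30693203) stood at 459, 525 and 440.4 FPKM in DMS153, at 638 and 703 FPKM in H209 and at 500.2, 573 and 514 FPKM in MRC5. The DMS153 and MRC5 libraries overlapped, and the log2 fold change between them was -0.16 ± 0.09 (limma adjusted p = 0.129), a sign that turned under quantile normalization and under scaling without small RNA and mitochondrial genes. H209 was 0.34 ± 0.10 log2 units above MRC5 (limma adjusted p = 0.0107), again with a sign that turned under median ratio scaling. TUBB4B (ENSG00000188229.5, chromosome 9, 140135665 to 140138159), which also serves cilia, stood at 196, 221 and 188 FPKM in DMS153, at 174 and 183 FPKM in H209 and at 119.6, 155 and 127 FPKM in MRC5. Its log2 fold changes were 0.59 ± 0.10 in DMS153 (limma adjusted p = 0.000466) and 0.42 ± 0.12 in H209 (limma adjusted p = 0.00769), short of the minimum. With FPKM as deposited, each carcinoma library lay above all MRC5 libraries. The change was 0.16 in DMS153 under TPM scaling and 0.05 in H209 under median ratio scaling.

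TUBB4A (ENSG00000104833.6, chromosome 19, 6494330 to 6502859), a beta isotype of brain, was hardly detected. It stood at 0.0152, 0.199 and 0.0399 FPKM in DMS153 and at 0.311 and 0.628 FPKM in H209, and at most 0.0192 FPKM in MRC5. It never reached 1 FPKM and was therefore not tested.

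**Figure D2:**
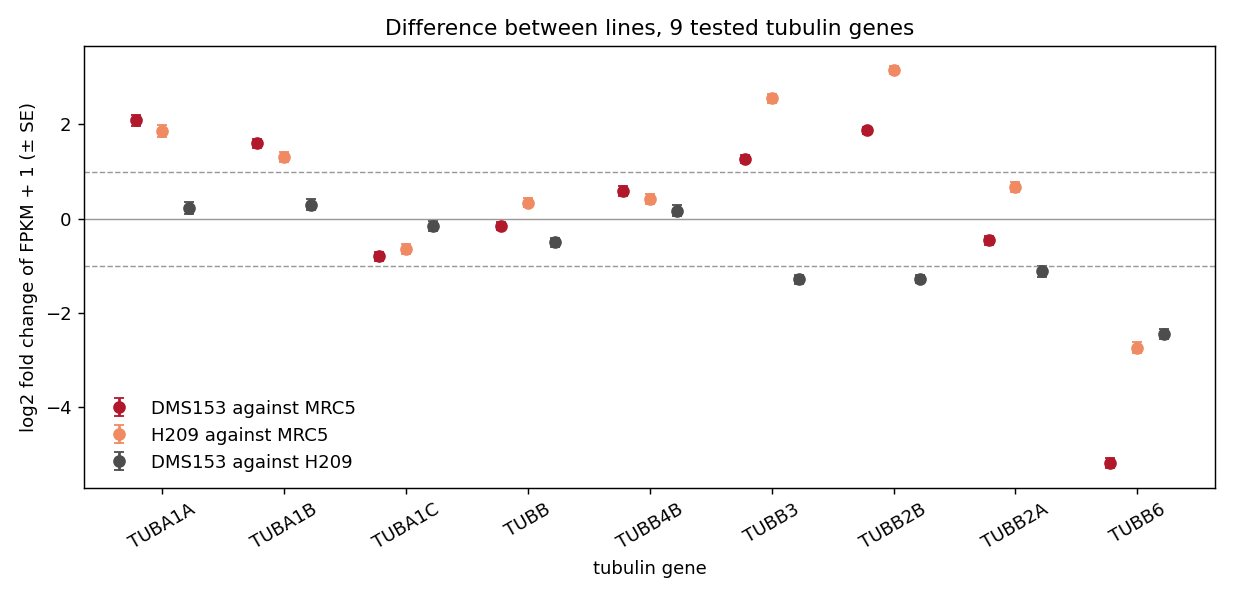
Log2 fold change of FPKM + 1 with its SE from limma for the 9 tested tubulin genes in the 3 comparisons; dashed lines mark the minimum of 1 in either direction. TUBB6 lies below the lower line in all 3 comparisons, and TUBB3, TUBB2B and TUBB2A lie below it only for DMS153 against H209.

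Of the 9 isotypes tested, TUBA1A, TUBA1B, TUBB3 and TUBB2B were called higher in DMS153 than in MRC5 and TUBB6 lower (limma, with an adjusted p after Benjamini and Hochberg under 0.05 and at least 1 log2 unit of change). Of all 19066 genes tested, 34.0% were called higher and 16.4% lower in this comparison, 50.4% in all. The same 4 isotypes were called higher and TUBB6 lower in H209 against MRC5, where 33.0% of all genes were called higher and 14.9% lower, 47.9% in all. These comparisons share the MRC5 libraries. With 9 genes, counts of 4 and 1 are near those backgrounds, so the calls describe single isotypes and no property of the group. The median log2 fold change was 0.59 over the tested isotypes and 0.44 over all genes in DMS153, and 0.67 and 0.46 in H209. Calls over all genes were higher in 67.5% of cases in DMS153, a share of 56.0% under TPM scaling and 48.9% under quantile normalization. In H209 that share was 68.9%, with 57.6% under median ratio scaling and 51.8% under quantile normalization. The median of all genes, against which the fold changes of the isotypes may be read, was 0.13 under TPM scaling, 0.28 under median ratio scaling and -0.03 under quantile normalization in DMS153 against MRC5. In H209 against MRC5 it was 0.70, 0.19 and 0.03 under the same scalings.

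The 4 isotypes called between the carcinoma lines were all beta tubulins, and each was lower in DMS153. TUBB6 was 2.44 ± 0.11 log2 units lower in DMS153 than in H209 (limma adjusted p = 1.64e-07). TUBB2B and TUBB3 were each 1.28 log2 units lower in DMS153 (SE 0.08 and 0.10, limma adjusted p = 1.21e-06 and 3.02e-06), and TUBB2A was 1.12 ± 0.11 lower (limma adjusted p = 1.45e-05). No isotype was called higher in DMS153 than in H209, and these 4 of 9 were called lower, against 13.8% and 13.4% of all genes, or 27.1% in either direction. TUBB differed by -0.50 ± 0.10 (limma adjusted p = 0.00165) and was not called, but under TPM scaling its difference was -1.15 (limma adjusted p = 2.67e-06), where it was also called lower in DMS153. The differences of TUBA1A (0.23 ± 0.13, limma adjusted p = 0.132), TUBA1B (0.30 ± 0.11, limma adjusted p = 0.0312), TUBA1C (-0.15 ± 0.10, limma adjusted p = 0.209) and TUBB4B (0.17 ± 0.12, limma adjusted p = 0.204) were under the minimum, and each changed sign under at least 1 other scaling. The median of all genes in this comparison was -0.04 with FPKM as deposited and -0.59 under TPM scaling, which left 21.5% of calls on the higher side, against 50.7% with FPKM as deposited. The call of TUBB2A was lost under median ratio scaling, at -0.96.

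The shares of the isotypes within each family do not depend on library scaling. Within alpha tubulin, TUBA1A held 52.7%, 50.7% and 56.8% in DMS153, 53.1% and 55.2% in H209 and 38.2%, 40.2% and 40.6% in MRC5. TUBA1C held 2.51% to 2.74% in DMS153, 3.32% and 3.75% in H209 and 13.9% to 16.1% in MRC5. Over all listed alpha tubulins, which averaged a sum of 3257 FPKM in DMS153, its share there was 2.52%. TUBA1B took a mean of 43.9% ± 3.12 in DMS153, 42.3% ± 1.13 in H209 and 45.6% ± 0.13 in MRC5 (SD). Its libraries overlapped between DMS153 and each other line. The leading alpha isotype was thus TUBA1A in the carcinoma lines and TUBA1B in the fibroblasts.

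Within beta tubulin, TUBB led in every line, with 56.6% ± 1.05 in DMS153, 53.3% ± 0.851 in H209 and 57.5% ± 1.20 in MRC5. What stood behind it differed. TUBB4B came next in DMS153 with 24.0% ± 0.296, against 14.2% ± 0.241 in H209 and 14.5% ± 0.709 in MRC5. TUBB3 came next in H209 with 16.8% ± 0.769, against 10.3% ± 0.613 in DMS153 and 3.83% ± 0.115 in MRC5. TUBB6 came next in MRC5, where it held 18.0%, 18.8% and 20.0%, but only 0.418% to 0.522% in DMS153 and 1.92% and 2.1% in H209. TUBB2B held 5.52% ± 0.310 in DMS153, 9.05% ± 0.0285 in H209 and 1.29% ± 0.0232 in MRC5. TUBB2A held 3.11% ± 0.491 in DMS153, 4.56% ± 0.0111 in H209 and 3.89% ± 0.104 in MRC5. TUBB4A stayed at or below 0.048%. TUBB3 and TUBB2B together made up 15.8% ± 0.853 of beta tubulin RNA in DMS153, 25.9% ± 0.741 in H209 and 5.12% ± 0.104 in MRC5.

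Over the 30 comparisons of a share between lines, the lowest adjusted p of the two-sided exact permutation test was 0.24. With 3 against 3 libraries this test cannot go below 0.1, and with 3 against 2 libraries not below 0.2, so the shares can only be read against their spread. Shares overlapped for TUBB and TUBB4A in DMS153 and MRC5, for TUBB4B in H209 and MRC5 and for TUBA1A in DMS153 and H209. The share of TUBA1B in DMS153 overlapped with that in each other line. Those of TUBB3, TUBB2B, TUBB2A, TUBB6 and TUBA1C did not overlap between any lines.

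**Figure D3:**
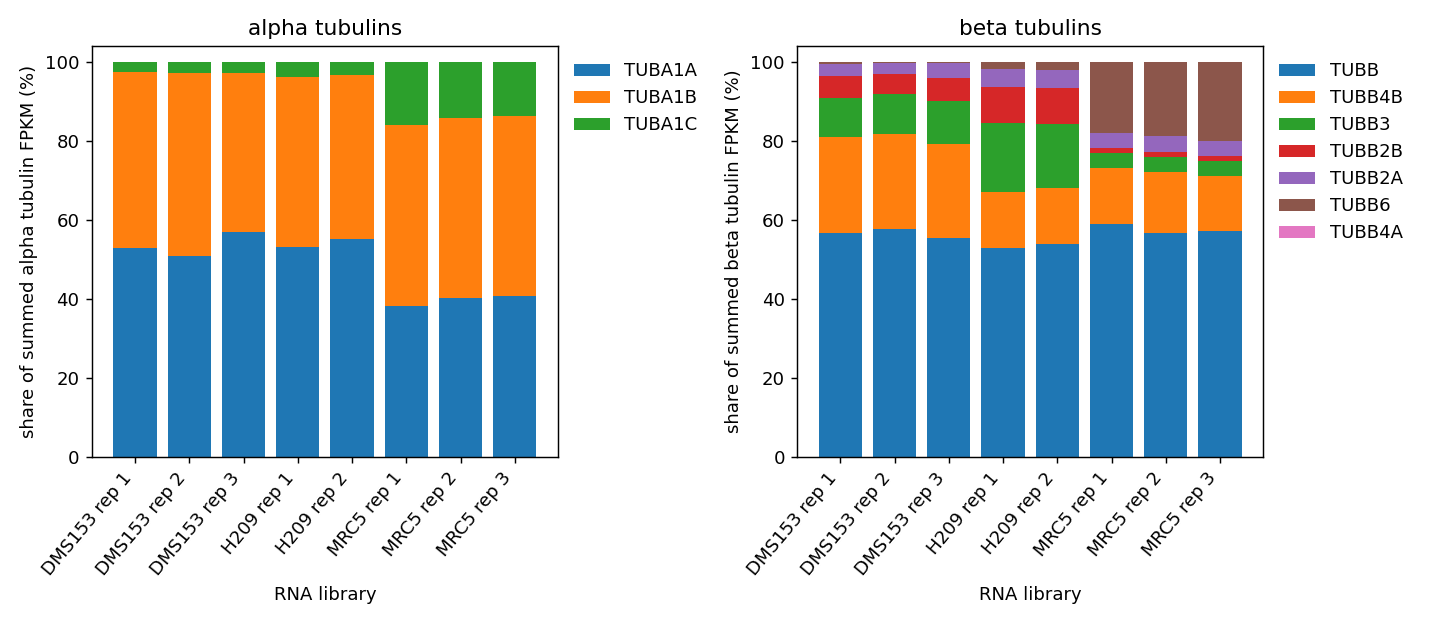
Share of each isotype in the summed FPKM of its family (percent), 1 stacked bar per RNA library, with alpha tubulins in the left panel and beta tubulins in the right. The band of TUBB6 is 18.0% to 20.0% tall in the MRC5 bars and at most 2.1% in the carcinoma bars, and the band of TUBA1C is at least 13.9% tall in MRC5 and at most 3.75% in the others.

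The summed levels of the families moved apart. The 3 alpha genes summed to 3082 ± 113 FPKM in DMS153, 2594 ± 183 FPKM in H209 and 978 ± 119.7 FPKM in MRC5. The 7 beta genes summed to 839 ± 64.6 FPKM in DMS153, 1257 ± 65.7 FPKM in H209 and 920.5 ± 82.6 FPKM in MRC5, so that DMS153 and MRC5 overlapped there. The alpha sum was 3.65, 3.43 and 3.98 times the beta sum in DMS153, 2.04 and 2.09 times in H209 and 1.05, 1.10 and 1.03 times in MRC5. A clone-named gene (XXbac-BPG252P9.9) that overlaps 773 bases of TUBB was itself listed at 523 ± 39.8 FPKM in DMS153, 666 ± 56.9 FPKM in H209 and 517 ± 45.8 FPKM in MRC5. Reads of TUBB may stand under it, and with its level added to the beta sum the ratios averaged 2.27, 1.35 and 0.679 in DMS153, H209 and MRC5. The order of the lines stayed the same. Whether the strand of reads was used in the counting is not given in the sources used here. Other overlapping clone-named genes are RP11-386G11.10 at TUBA1B, with 78.8, 56.3 and 24.9 FPKM on average in DMS153, H209 and MRC5, and RP11-161H23.5 at TUBA1C, with 79.1, 62.2 and 166 FPKM. RP11-161H23.5, like TUBA1C, was listed highest in MRC5. Neither of these genes was added to the alpha sum, so the ratios with an added gene change the beta side only.

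**Figure D4:**
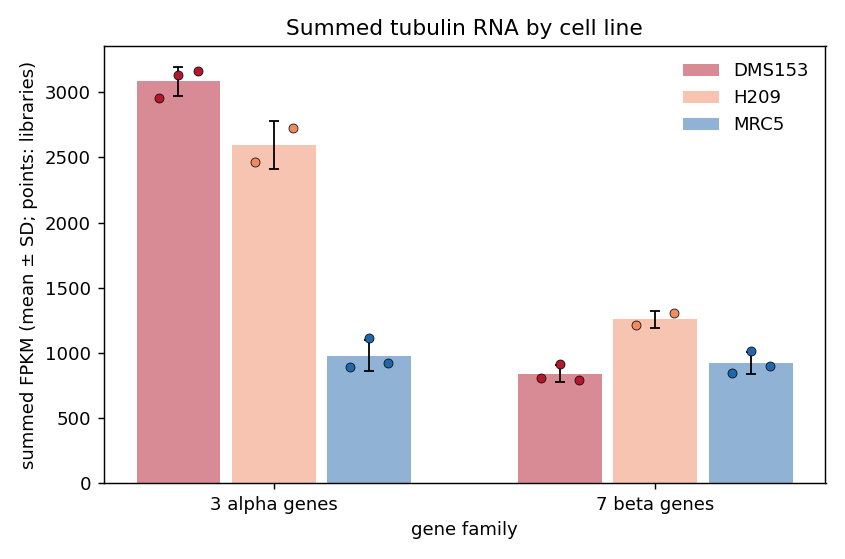
Summed FPKM of the 3 alpha and the 7 beta tubulin genes by line; bars are means, error bars SD and points libraries. The alpha bars are 3082, 2594 and 978 FPKM tall in DMS153, H209 and MRC5, whereas the beta bars lie between 839 and 1257 FPKM.

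By level, the order in DMS153 was TUBA1A, TUBA1B, TUBB, TUBB4B, TUBB3, TUBA1C, TUBB2B, TUBB2A, TUBB6 and TUBB4A, and only TUBB3 and TUBA1C overlapped with their neighbour. In H209 it was TUBA1A, TUBA1B, TUBB, TUBB3, TUBB4B, TUBB2B, TUBA1C, TUBB2A, TUBB6 and TUBB4A, with no overlap between neighbours. In MRC5 it was TUBB, TUBA1B, TUBA1A, TUBB6, TUBA1C, TUBB4B, TUBB2A, TUBB3, TUBB2B and TUBB4A, and the libraries of TUBB, TUBA1B and TUBA1A overlapped from each to the next, as did those of TUBB6, TUBA1C and TUBB4B and those of TUBB2A and TUBB3.

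The genes nearest to each isotype by the Euclidean distance of log2(FPKM + 1) over the 8 libraries were as follows. SOX4 (0.698) and STARD10 (0.705) were nearest to TUBB2B, and MEAF6 (0.70) and PTPRF (0.744) to TUBB3. PTGR1 (1.41) and TSPAN4 (1.60) were nearest to TUBB6, which had no closer companion. HNRNPA2B1 was nearest to both TUBA1A (0.781) and TUBA1B (0.770), followed by PTMA (1.5) and AES (1.31). TMEM14B (0.404) and DPF2 (0.405) were nearest to TUBB2A, PABPC4 (0.355) to TUBB4B, CLTA (0.368) and NEDD8 (0.396) to TUBA1C, and GNAS (0.568) and RPS7 (0.580) to TUBB. SOX4 had a mean of 45.0 FPKM in DMS153, 157 FPKM in H209 and 11.9 FPKM in MRC5. TUBB2B averaged 46.2, 114 and 11.9 FPKM there, so SOX4 was close to it in DMS153 and MRC5 and higher in H209.

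Genes were placed in the listed chromatin domains by the lowest coordinate of their locus, which for a gene on the minus strand is its 3′ end. TUBB2A and TUBB2B, whose lowest coordinates are 70.6 kb apart, lay in a domain of 140 kb (chromosome 6, 3120000 to 3259998 in hg19) that was listed with the same ends in DMS153, H209 and MRC5. The lowest coordinates of TUBA1A, TUBA1B and TUBA1C lay in a domain of 220 kb (chromosome 12, 49440000 to 49659998), again with the same ends in each line. The locus of TUBA1C ran past the upper end of this domain. The lowest coordinates of TUBB, TUBB3, TUBB4A, TUBB4B and TUBB6 lay in no listed domain of any line. The nearest listed domain end was 72.3, 67.7 and 67.7 kb from that of TUBB6 in DMS153, H209 and MRC5, and at least 2808 kb away for TUBB in each. With 1 Hi-C library per line these positions have no replicate check. The lists hold 5023, 3987 and 3701 domains in DMS153, H209 and MRC5.

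The 13 other tubulin genes summed to 261 to 283 FPKM in DMS153, 128 to 134 FPKM in H209 and 81.8 to 89.4 FPKM in MRC5. TUBA4A, an alpha tubulin encoded without the C-terminal tyrosine, stood at 130 ± 7.02 FPKM in DMS153, 29.2 ± 0.815 FPKM in H209 and 15.6 ± 2.99 FPKM in MRC5, a log2 fold change of 2.99 ± 0.11 in DMS153 against MRC5 (limma adjusted p = 9.81e-09). It was 0.88 ± 0.13 log2 units higher in H209 than in MRC5 (limma adjusted p = 0.00015), short of the minimum. TUBA3C, an alpha tubulin known from testis, stood at 38.6, 42.1 and 40.6 FPKM in DMS153, at most 0.0214 FPKM in H209 and at most 0.000352 FPKM in MRC5. TUBA3C has near copies, so its reads may be shared. TUBA8 had 3.09, 3.45 and 0.501 FPKM and TUBD1, the delta tubulin of centrioles, 6.02, 6.27 and 1.12 FPKM on average in DMS153, H209 and MRC5. Both were called higher in each carcinoma line than in MRC5. TUBG1, the gamma tubulin that nucleates microtubules, averaged 57.8, 42.4 and 29.2 FPKM and was not called, TUBG2 averaged 10.3, 21.7 and 10.2 FPKM and was called higher in H209 than in MRC5 (1.02 ± 0.08, limma adjusted p = 1.72e-06), and TUBE1, the epsilon tubulin, averaged 25.6, 26.0 and 27.4 FPKM. Of the 13 other tubulin genes, 7 were tested, of which 4 were called higher in DMS153 against MRC5 and 3 in H209 against MRC5, and none lower, where 34.0% and 33.0% of all genes were called higher.

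Genes that act on tubulin were described from lists, each to be read against the share of all genes called against MRC5, which was 34.0% higher and 16.4% lower in DMS153 and 33.0% higher and 14.9% lower in H209. Of 22 microtubule-associated genes known from neurons, all tested, 16 were called higher and 3 lower in DMS153 against MRC5 (median log2 fold change 2.96), and 17 higher and 2 lower in H209 (median 3.16). KIF1A, an axonal kinesin, had 220.1 ± 8.31 FPKM in DMS153, 271 ± 8.72 FPKM in H209 and 0.118 ± 0.0907 FPKM in MRC5. MAPT, which encodes tau, had 14.5 ± 0.568 FPKM in DMS153, 44.8 ± 1.96 FPKM in H209 and 0.187 ± 0.0553 FPKM in MRC5. MAP1A, which stabilises neuronal microtubules, was lower in the carcinoma lines, at 2.37 ± 0.103 FPKM in DMS153, 4.93 ± 0.468 FPKM in H209 and 43.8 ± 0.558 FPKM in MRC5. Of 23 other microtubule-associated genes, 11 were called higher and 2 lower in DMS153, and 13 higher and 3 lower in H209, where 50.4% and 47.9% of all genes were called in either direction. The largest rise in DMS153 was that of KIF2C, at 67.2 ± 7.28 FPKM in DMS153, 21.7 ± 0.589 FPKM in H209 and 1.72 ± 0.422 FPKM in MRC5. In H209 it was that of PRC1, at 103 ± 7.09, 153 ± 9.67 and 8.25 ± 1.36 FPKM in the same order of lines. MAP4, the main such protein of non-neuronal cells, was among the few called lower. It stood at 13.6 ± 1.13 FPKM in DMS153, 23.6 ± 0.034 FPKM in H209 and 173 ± 3.26 FPKM in MRC5.

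Of 24 tested enzymes that add or remove marks on tubulin, 12 were called higher and 1 lower in DMS153, and 12 higher and none lower in H209. The total called was near the 50.4% of all genes in DMS153 and the 47.9% in H209, but nearly all of these calls were higher. Of all genes, 34.0% were called higher and 16.4% lower in DMS153, and 33.0% higher and 14.9% lower in H209. VASH2, which removes the C-terminal tyrosine of alpha tubulin, stood at 4.17 ± 0.537 FPKM in DMS153, 14.1 ± 0.013 FPKM in H209 and 0.467 ± 0.0547 FPKM in MRC5. AGTPBP1, which trims glutamates from tubulin tails, stood at 17.1 ± 0.999 FPKM in DMS153, 22 ± 0.13 FPKM in H209 and 2.57 ± 0.234 FPKM in MRC5. Of the 21 genes of tubulin folding, 2 were called higher and 3 lower in DMS153 (median 0.06, against 0.44 over all genes), and 4 higher and 2 lower in H209 (median 0.31, against 0.46), where 50.4% and 47.9% of all genes were called. TBCD, a cofactor that handles beta tubulin, stood at 32.1 ± 1.48 FPKM in DMS153, 80.3 ± 4.35 FPKM in H209 and 15.2 ± 2.69 FPKM in MRC5. Of 18 genes of the gamma tubulin ring and its recruiters, 8 were called higher and 1 lower in DMS153, a total near the 50.4% of all genes. In H209, 11 were called higher and none lower, where 47.9% of all genes were called. As with the enzymes that mark tubulin, nearly all of these calls were higher. Of these lists, the folding genes had medians below those of all genes, and the other lists medians above them, in both carcinoma lines. Counts and medians of the lists were taken with FPKM as deposited only. Over all genes, the share of calls that were higher fell to 48.9% in DMS153 and 51.8% in H209 under quantile normalization.

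**Figure D5:**
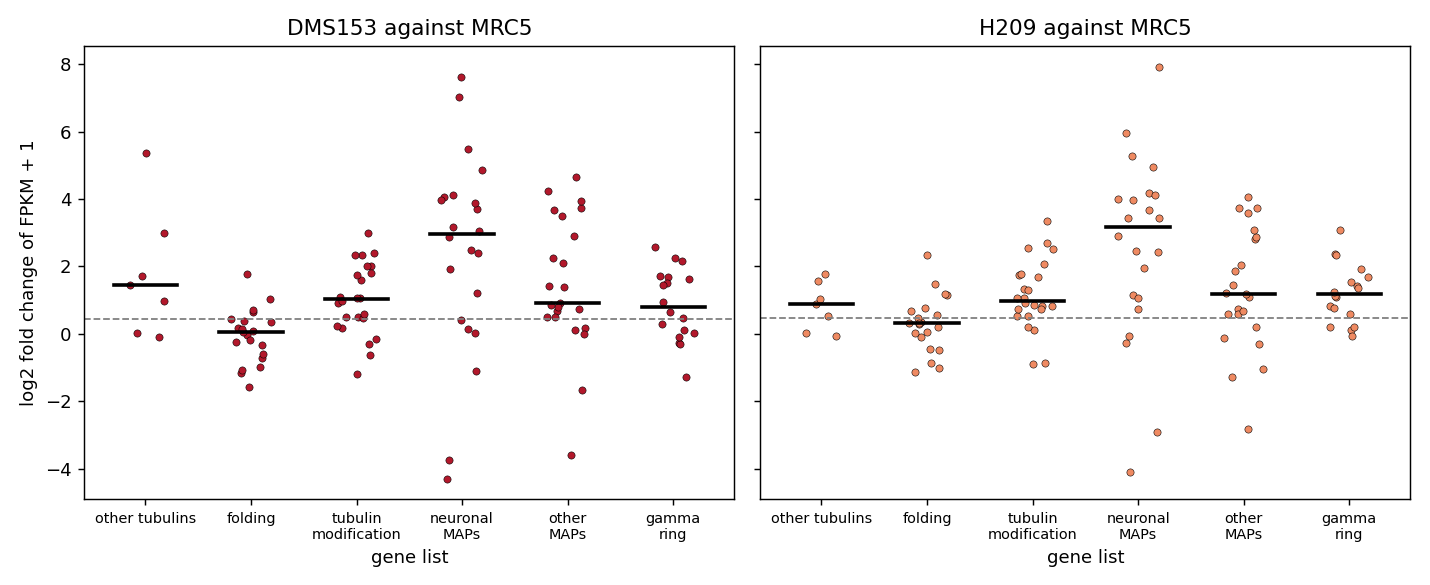
Log2 fold changes of FPKM + 1 against MRC5 for the tested genes of 6 lists related to tubulin, in DMS153 (left) and H209 (right); points are genes, black lines list medians, and the dashed line the median of all 19066 genes tested (0.44 and 0.46). Neuronal microtubule-associated genes (MAPs) have the highest medians, 2.96 and 3.16, and folding genes the lowest, 0.06 and 0.31.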

How the data were processed

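RNA-seq of 8 libraries and Hi-C of 3 libraries were used as deposited. The deposited RNA tables hold FPKM per gene with an interval and a status, per the file headers; the submitters' processing notes name TopHat2 2.1.0, Cufflinks 2.2.0, Bowtie2, HOMER 4.8 and hg19. The deposited domain score was not used, only the domain coordinates. The submitters' titles write DM153 for the DMS153 RNA libraries. All values of the 10 isotypes had the status OK. The symbol TUBB3 stands on 2 rows; the row whose identifier a gene name table pairs with TUBB3 was used, and the other averaged 0.578, 1.48 and 0.412 FPKM in DMS153, H209 and MRC5.

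Genes with at least 1 FPKM in at least 2 libraries were tested on log2(FPKM + 1), with 1 mean per line over all 8 libraries, in R 4.3.3 with limma 3.58.1 (eBayes with trend, 5 residual degrees of freedom, Benjamini-Hochberg over 19066 genes). That scale understates changes of low genes. Shares were computed within each library in Python 3.11.15 and tested with scipy 1.17.1. The fit was tested on simulated data. Other scalings, pseudocounts, filters, a replicate block, interval bounds and leaving out each library were tried as alternatives. The deposited interval of a member above 1 FPKM extended by 2.87% to 18.6% to either side. Members, lists and motifs were chosen with earlier results of these data known. Named genes are all members, other tubulins with a mean of at least 1 FPKM in any line, from each list and comparison up to 2 called genes at either extreme, and the 2 nearest genes of each member. One of these nearest genes is not reported here. Those printed from the lists were picked among these with their values known. Promoter windows come from RefSeq on GRCh38.p14, and no coordinate was converted between builds.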

Additional observations from a re-analysis of the deposited data

Results flagged for a closer look

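The effects of the carcinoma lines against MRC5 differed from each other in 4 isotypes, by the direct comparison of DMS153 with H209, in which the MRC5 libraries cancel. The effect on TUBB6 was lower in DMS153 than in H209 by 2.44 log2 units (-2.44). The effects on TUBB2B (-1.28) and TUBB3 (-1.28) were larger in H209, with a rise in both lines. The effect on TUBB2A (-1.12) was negative in DMS153, at -0.45, and positive in H209, at 0.67, neither of which reached the minimum fold alone. No group of RNA libraries is large enough for a search for outlying libraries.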

How the results depend on the processing

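Of the calls against MRC5, those of TUBA1A, TUBB2B and TUBB6 held in both lines under all alternatives run, and so did those of TUBB6, TUBB2B and TUBB3 between DMS153 and H209. The count of isotypes called lower reached 2 in DMS153 against MRC5 under TPM and median ratio scaling, and 2 in H209 against MRC5 under median ratio scaling. In DMS153 against H209, where 4 were called lower, it was 5 under TPM scaling, which added TUBB, and 3 under median ratio scaling, which lost TUBB2A. Uncalled differences changed sign as follows. TUBB in DMS153 against MRC5 was 0.0768 under quantile normalization and 0.157 when small RNA and mitochondrial genes were left out of the scaling, and in H209 against MRC5 -0.0278 under median ratio scaling. Between DMS153 and H209, TPM scaling gave -0.476 for TUBB4B, -0.423 for TUBA1A and -0.349 for TUBA1B, quantile normalization -0.0773, -0.715 and -0.621 for the same genes, and median ratio scaling 0.0002 for TUBA1C. TPM scaling divides every value by the summed FPKM of its library. These sums were 810283 to 841850 FPKM in DMS153, and 519066 and 532754 FPKM in H209. The cause of the sign changes was not tested beyond these values. Over all genes, quantile normalization gave 4242 called higher in DMS153 and 4086 in H209 against MRC5, where FPKM as deposited gave 6489 and 6300, and TPM scaling 6630 lower in DMS153 against H209, where FPKM gave 2547.

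With the deposited interval bounds (the isotype at one bound and the rest at the other), the share of TUBB ran between 54.7% and 58.4% in DMS153, 51.5% and 55.1% in H209 and 55.8% and 59.3% in MRC5, that of TUBA1A in H209 between 52.5% and 55.8%, and that of TUBA1B in MRC5 between 43.8% and 47.3%; the last was 44.8% over all listed alpha tubulins. Adding the overlapping clone-named gene, an alternative chosen after seeing the data, gave TUBB 73.2%, 69.5% and 72.8% of beta tubulin in DMS153, H209 and MRC5, and alpha to beta ratios of 2.27, 1.35 and 0.679. With the replicate number as a block, 4 isotypes were called higher and 1 lower in each carcinoma line against MRC5, and no call of an isotype changed. Deviations of same-numbered libraries correlated at -0.0118 to 0.123, and those of differently numbered libraries at -0.123 to 0.0541. The 2 H209 libraries deviate from their mean in mirror image, so their correlations are equal and opposite. The numbers were not taken to pair the libraries, and these values cannot settle whether they do. Leaving out any 1 library changed no call of an isotype; without 1 H209 library, the other was assumed to vary like the rest. The deposited interval of TUBB4A extended by at least 63.7% of its level to either side in every library with a value above 0.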
